A study of Mus musculus with 8 samples.

Results

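Aminoacyl-tRNA synthetases attach each amino acid to the transfer RNAs that carry its anticodon, and so supply every substrate of the ribosome. The set described here holds 36 genes of the 20254 in the table, taken by name from a fixed list. Of these, 20 encode the enzymes of the cytosol and 16, with names ending in 2, encode those of mitochondria. All 36 had enough reads to be tested. The threonine paralog Tarsl2 is in the table too but not in the set.

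The samples were nephron progenitor cells, the cap mesenchyme cells that form the epithelium of the nephron, from mouse kidneys at embryonic day 17.5. They were sorted by the green fluorescence of the Six2EGFPcre strain, in which Six2, a transcription factor of these cells, drives a fusion of GFP and Cre recombinase. In the 4 controls the cells carried one deleted allele of Vhl (VHLNP+/-) and in the 4 mutants both (VHLNP-/-). All 8 libraries thus share the transgene and at least one deleted allele, and no wild-type library is among them. Vhl encodes the substrate-binding subunit of the ubiquitin ligase that sends HIF, the hypoxia-inducible transcription factor, to degradation by way of its alpha subunits. The comparison asks how synthetase transcripts differ between cells with and without a working Vhl gene.

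Each synthetase works in one compartment, with a few exceptions. Gars and Kars give both the cytosolic and the mitochondrial enzyme, and Eprs joins the enzymes for glutamate and proline in a single protein. In the cytosol 8 members, Dars, Eprs, Iars, Kars, Lars, Mars, Qars and Rars, are held in a multisynthetase complex. When amino acids are short or proteins misfold, uncharged transfer RNA or stress activates kinases of the initiation factor eIF2 alpha. The transcription factor ATF4 is then made, and it activates many cytosolic synthetase genes together with genes of amino acid synthesis and uptake. ATF4 with a C/EBP partner binds a composite element known as CARE.

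The promoters show how the 2 sets of enzymes differ in that element, and they are given first because the fold changes are read beside them. RefSeq promoters of the GRCm38.p6 assembly, from 250 bases before to 50 after the start, were matched for 27 members, 13 cytosolic and 14 mitochondrial. No entry was matched for Cars, Hars, Lars, Nars, Rars, Vars, Wars, Hars2 and Pars2. The core TGATGNAA, searched on both strands, was present in 5 of the 13 cytosolic promoters (38.5%) and 0 of the 14 mitochondrial ones, against 3.97% of all 32851 promoters. All 5 belong to the 8 matched genes of a list of cytosolic synthetases known to be induced through ATF4, and 0 of the 5 other matched cytosolic genes held it. A window of 30 bases around a match follows for each of the 5 genes, 5′ to 3′ on the strand of the gene, with the 8 bases of the match in capitals. They lie at chr8:111033840-111033869 (Aars, plus strand), chr6:55037960-55037989 (Gars, plus), chr13:49682126-49682155 (Iars, plus), chr15:11399655-11399684 (Tars, minus) and chr4:129189895-129189924 (Yars, plus).
Aars: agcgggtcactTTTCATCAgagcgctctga
Gars: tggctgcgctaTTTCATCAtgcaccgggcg
Iars: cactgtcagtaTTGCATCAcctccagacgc
Tars: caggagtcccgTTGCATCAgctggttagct
Yars: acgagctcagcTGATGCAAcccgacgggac

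The first base of the match shown lay at 10 from the start in Aars, -30 in Gars, 8 in Iars, -15 in Tars and 4 in Yars. Aars held another match before the start, at -112, which is not shown. In Yars the match read TGATGNAA on the strand of the gene, and in the other genes on the opposite strand. A match is a string of letters and not a measured binding site.

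Cores of the HIF response element were also searched on both strands. ACGTG was found in 6 of 13 cytosolic and 4 of 14 mitochondrial promoters (46.2% and 28.6%), against 19.6% of all promoters. GCGTG was found in 10 of 13 and 10 of 14 (76.9% and 71.4%), against 32.4%. The E-box CACGTG, which contains ACGTG on both strands, was in 4 of 13 and 1 of 14, against 7.15%. These shares are not matched for base composition.

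The 250 bases before the start are shown for the pair of genes that were called, Dars and Iars2. Capitals mark TGATGNAA, the E-box and both HIF cores on either strand. They lie at chr1:128417417-128417666 (Dars, minus strand) and chr1:185329402-185329651 (Iars2, minus strand) of GRCm38.p6.
Dars: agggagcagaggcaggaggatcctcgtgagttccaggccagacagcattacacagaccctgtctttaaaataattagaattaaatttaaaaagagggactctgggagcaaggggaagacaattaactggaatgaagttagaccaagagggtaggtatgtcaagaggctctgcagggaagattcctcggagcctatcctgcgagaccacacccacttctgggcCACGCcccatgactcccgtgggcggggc
Iars2: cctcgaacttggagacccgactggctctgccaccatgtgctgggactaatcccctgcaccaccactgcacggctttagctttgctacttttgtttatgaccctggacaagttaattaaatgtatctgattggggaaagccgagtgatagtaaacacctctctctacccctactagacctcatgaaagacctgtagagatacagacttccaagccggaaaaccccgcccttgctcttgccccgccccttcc

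The Dars promoter held 1 GCGTG core on its opposite strand before the start and no TGATGNAA, and the Iars2 promoter held no match before the start.

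Per library 37252683 to 46515762 reads fell on genes, and the comparison covered 15381 genes. Levels below are reads divided by size factors (normalised reads). A log2 fold change is the mutant mean less the control mean of log2(normalised reads + 1), and called means an adjusted p under 0.05 from limma. Vhl was lower in each mutant library (285 to 336 normalised reads) than in each control (1134 to 1379), at 26% of the control level (limma adjusted p = 4.22e-08). An exact permutation test, two-sided, gave p = 0.0286, the smallest that 4 against 4 libraries allow. Summed reads of 12 progenitor markers were between 118904 and 133084 in controls and between 115643 and 125756 in mutants, and limma called 1 of the 12 higher and 4 lower. Those of 7 stroma markers lay between 23382 and 50958 in controls and between 19815 and 40934 in mutants, and of 6 podocyte markers between 1710 and 7871 and between 1099 and 2586, with 0 of 7 and 1 of 6 called. All 6 podocyte estimates lay below 0 (median log2 -1.04), as did 7 of 8 for differentiating nephron markers (median -0.144, 1 called lower), and all 6 for ureteric bud lay above 0 (median 0.593, 0 called by limma, 1 with p under 0.05 before adjustment, 1 called in the authors' deposited table). Of 6 endothelial markers 1 was called higher (median 0.081), and among 7 tubule, 5 leukocyte and 1 tested red blood cell marker limma called 0, with 0 under 0.05 before adjustment and 0 in the authors' deposited table. The part of these cells in the synthetase values was not tested. Separate animals are not named for the libraries of a group, so p-values reflect how these samples scatter, in part perhaps for technical reasons. In such bulk libraries fewer cells of a type and less RNA per cell cannot be told apart.

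The synthetase genes together took between 0.327% and 0.352% of the reads in controls and between 0.311% and 0.365% in mutants. Every member had at least 177 reads in each library. Per kb of exon the cytosolic genes were the more abundant set, with a median of 1670 normalised reads per kb in controls against 416 for the mitochondrial genes. Kars, the lysine enzyme of both compartments, was highest at 4100 ± 204 (SD, n = 4), followed by the glutamine enzyme Qars at 2910 ± 195 (SD, n = 4) and the valine enzyme Vars at 2810 ± 370 (SD, n = 4). The last 2 of these did not differ beyond their spread. Cars, for cysteine, was the lowest cytosolic gene at 684 ± 55.7 (SD, n = 4).

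Eprs, which serves glutamate and proline at once, stood at 2160 ± 128 (SD, n = 4) per kb in controls, against 698 ± 31.8 for Ears2 and 132 ± 13.8 for Pars2 (SD, n = 4). Apart from these, 14 amino acids had a gene of their own for each compartment, with Farsa taken for phenylalanine, and in 13 the cytosolic gene had the higher level per kb. The ratio in controls was 2.09 ± 0.175 (SD, n = 4) for Tars over Tars2 and 12.7 ± 0.466 (SD, n = 4) for Nars over Nars2. It reached 62.6 ± 5.63 (SD, n = 4) for Mars over Mars2, whose annotated exons span 11.294 kb, the longest of the set. For leucine the order was turned, with Lars at 0.619 ± 0.205 (SD, n = 4) of the level of Lars2. Lars2 ranged from 6216 to 13732 normalised reads among the controls, and its values are described further below. Whether all these reads come from the Lars2 transcript was not tested.

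**Figure D1:**
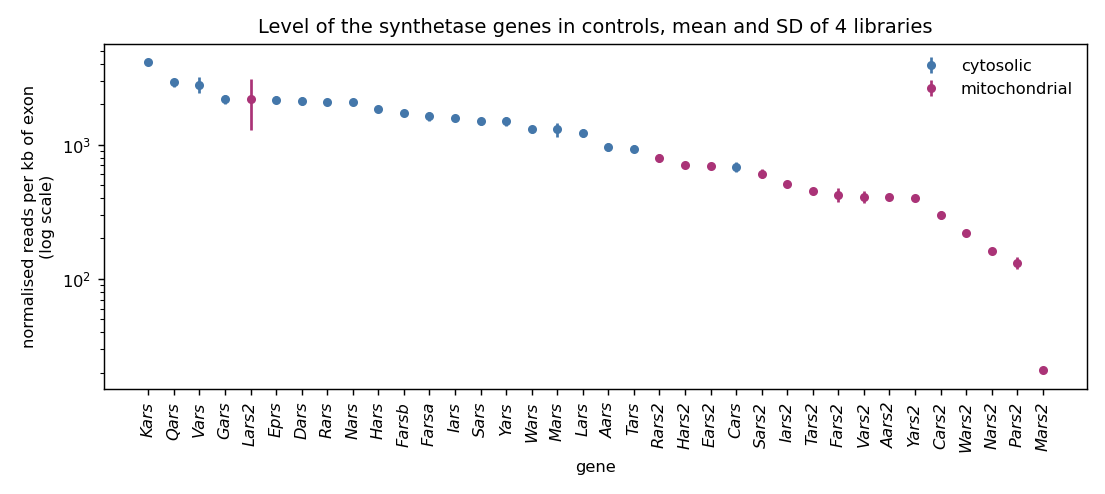
Mean level of each of the 36 genes in the 4 control libraries, in normalised reads per kb of exon on a log axis, with the SD as the error bar; blue points are cytosolic and purple points mitochondrial enzymes. Kars is highest at 4100 and Mars2 lowest at 20.8. Lars2 at 2190 is the highest mitochondrial gene and has the widest bar. Rars2 at 797, Hars2 at 711 and Ears2 at 698 also lie above the lowest cytosolic gene, Cars at 684.

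Most synthetase genes did not pass the test between mutants and controls, and the differences were small. By limma 1 of 36 rose, 1 fell and 34 were not called, which is 5.56% called. Of all tested genes 8.43% were called, 5.4% higher and 3.03% lower, and the share was 9.31% among 10410 genes in the range of mean level of the members. At an unadjusted p under 0.05, 1 member lay higher and 7 lower, beside 12.0% and 11.2% of all tested genes. The authors' deposited table called 1 higher and 3 lower, where it called 7.12% of its genes higher and 5.35% lower, 12.5% in all. The median log2 fold change was -0.027 for the 20 cytosolic and -0.102 for the 16 mitochondrial genes. It was -0.007 for all tested genes and -0.019 for the 10410 in the range of mean level of the members.

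The intervals bound these differences. For 35 of 36 members the 95% interval of the fold change lay within a fold of 1.5 in either direction, which was so for 71.8% of all tested genes and for 90.6% of genes in the same range of level. The exception was Lars2. Below 0 lay 14 of 20 cytosolic and 13 of 16 mitochondrial estimates, beside 51.5% of all tested genes and 55.4% of genes in the same range of level.

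**Figure D2:**
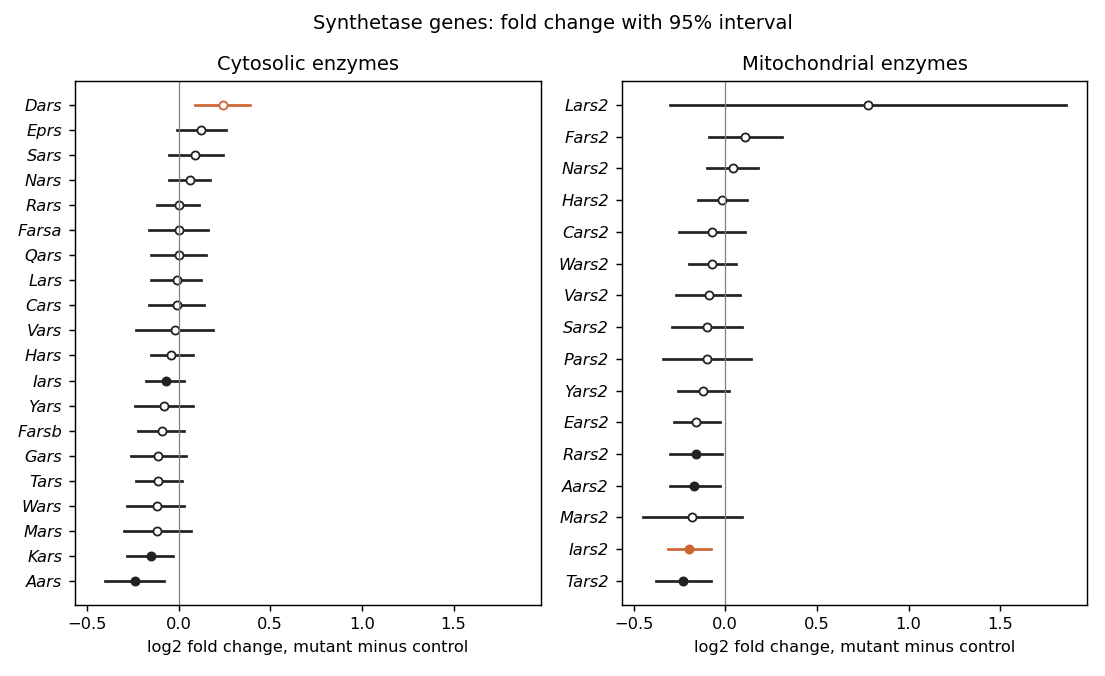
Log2 fold change (mutant minus control) of each gene with its 95% interval, cytosolic enzymes on the left and mitochondrial on the right; orange marks an adjusted p under 0.05, and a filled point marks groups of libraries that do not overlap. Dars at 0.24 and Iars2 at -0.20 are the called genes, and Lars2 has an interval from -0.30 to 1.86.

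Among the members of the multisynthetase complex Dars, the aspartate enzyme, rose. It lies on chromosome 1 from 128363707 to 128417368 of mm10, on the minus strand, and no other annotated gene overlaps it. It stood at 5640, 5034, 4836 and 5431 normalised reads in controls 1 to 4 and at 6276, 5616, 6477 and 6375 in mutants 1 to 4. Mutant 2 lay just below control 1, so the groups overlapped, and the other mutants lay above all controls. The level rose to 118% of control (log2 0.24, SE 0.07, limma adjusted p = 0.0499). With 1 library left out the call held without control 1 or mutant 2 and was lost without control 2, control 3, control 4, mutant 1, mutant 3 or mutant 4, with an adjusted p of up to 0.153. The authors' deposited table gives an adjusted p of 0.00877.

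The other 7 enzymes of the complex were not called. Kars stood at 8555, 9479, 9571 and 9191 in controls and 8508, 8501, 7660 and 8381 in mutants 1 to 4, so each mutant lay below each control (log2 -0.15, limma adjusted p = 0.14). Iars, the isoleucine enzyme, stood at 6737, 6855, 7175 and 7081 in controls and 6713, 6667, 6519 and 6608 in mutants, also without overlap, at 95.2% of the control level (adjusted p = 0.411). The log2 fold change of Eprs was 0.12 (adjusted p = 0.257). Lars, Mars, Qars and Rars had values between -0.12 and 0.00 with adjusted p of at least 0.437. The 3 scaffold genes of the complex, Aimp1, Aimp2 and Eef1e1, were not called either by limma or in the authors' deposited table (-0.04, 0.18 and -0.02). The median of the 8 enzymes was -0.008.

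Of the 12 cytosolic enzymes outside the complex 0 were called by limma, with 1 at an unadjusted p under 0.05 and 1 called in the authors' deposited table. In each case this was Aars, the alanine enzyme. Aars stood at 5011, 5855, 5846 and 5580 in controls and at 4869, 4936, 4203 and 4866 in mutants 1 to 4. Each mutant lay below each control, with control 1 the lowest control and mutant 3 the lowest library. The mean was 84.7% of the control level (log2 -0.24, SE 0.07, adjusted p = 0.0642), and the adjusted p was 0.0213 without control 1. The same table of the authors gives 0.0163. Aars lies on chromosome 8 from 111033144 to 111057664 and overlaps Exosc6 on its own strand.

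The phenylalanine enzyme of the cytosol is made of 2 kinds of subunit, which can be set side by side. The alpha subunit gene Farsa was at 2985 ± 223 and 2988 ± 250, and the beta subunit gene Farsb at 3758 ± 166 and 3521 ± 152 (SD, n = 4 each). Neither was called by limma (adjusted p = 0.997 and 0.345). Of the remaining genes of this group, Sars and Nars had estimates above 0 (0.09 and 0.06), and Cars, Gars, Hars, Tars, Vars, Wars and Yars lay between -0.12 and -0.01.

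The 13 cytosolic genes listed as inducible through ATF4 gave 0 calls by limma (the authors' deposited table calls 1, Aars, which is also the 1 with an unadjusted p under 0.05), with a median of -0.071, and 10 of the 13 estimates lay below 0. The 7 other cytosolic genes gave 1 call, Dars, with a median of -0.003, and 4 of the 7 estimates lay below 0. In the 5 genes whose promoters held TGATGNAA the estimates were all below 0 and 0 were called by limma (1, Aars, at an unadjusted p under 0.05): -0.24 in Aars, -0.11 in Gars, -0.07 in Iars, -0.11 in Tars and -0.08 in Yars. Beside these counts, 14 of all 20 cytosolic estimates and 51.5% of those of all tested genes lay below 0. Limma called 8.43% of all tested genes, and the authors' deposited table called 12.5% of its genes. The counts of these short lists were not tested against those shares.

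Of the 16 mitochondrial enzymes 0 rose, 1 fell and 15 were not called. The fallen gene was Iars2, for isoleucine, on chromosome 1 from 185284726 to 185329396 on the minus strand. It stood at 3377, 3577, 3358 and 3366 normalised reads in controls and at 3112, 2826, 3027 and 2984 in mutants 1 to 4. The highest mutant lay below the lowest control. Its level fell to 87.3% of control (log2 -0.20, SE 0.05, limma adjusted p = 0.0412). The call held without control 1 or mutant 1 and was lost without control 2, control 3, control 4, mutant 2, mutant 3 or mutant 4, with an adjusted p of up to 0.127. Iars2 overlaps Rab3gap2 and other genes on the opposite strand, and no source used here says whether reads were counted by strand, so its value is uncertain. The same holds for the 17 members in all that overlap a gene on the other strand.

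The other mitochondrial genes whose groups did not overlap were Tars2, Aars2 and Rars2. Tars2, for threonine, stood at 1940, 2002, 2028 and 1829 in controls and 1710, 1727, 1475 and 1751 in mutants (log2 -0.23, limma adjusted p = 0.0617). The authors' deposited table gives Tars2 an adjusted p of 0.0218. Aars2, for alanine, stood at 1327, 1304, 1471 and 1370 in controls and 1240, 1260, 1134 and 1240 in mutants (log2 -0.17, limma adjusted p = 0.135). Rars2, for arginine, stood at 1641, 1391, 1495 and 1430 in controls and 1380, 1269, 1353 and 1327 in mutants (log2 -0.16, limma adjusted p = 0.165). In all, groups did not overlap in 7 of 36 members, 0 higher and 7 lower, while 8.54% of all tested genes lay wholly higher and 6.72% wholly lower. Among the 10410 genes in the range of mean level of the members, 834 lay wholly higher and 867 wholly lower.

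**Figure D3:**
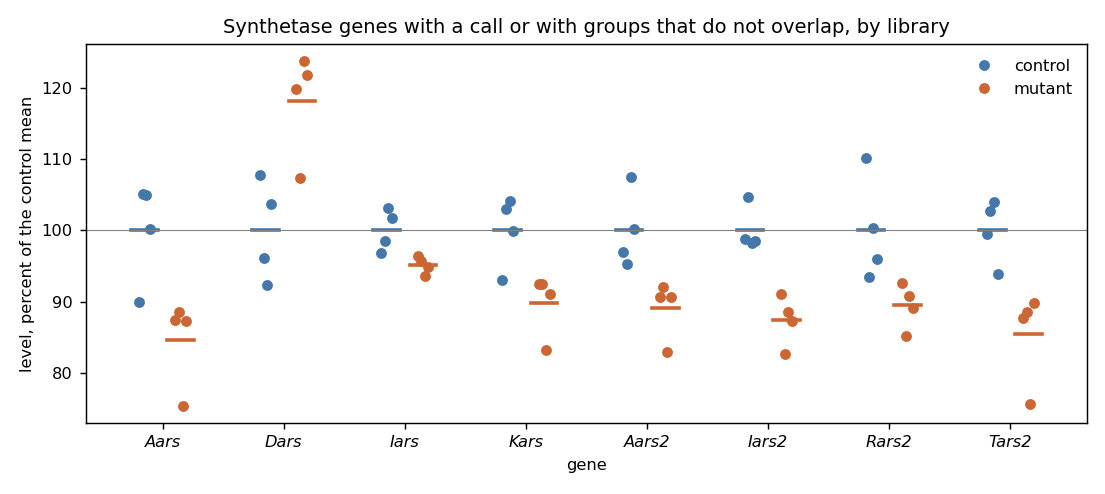
Level in each library as a percent of the control mean for the 8 genes that were called or whose groups did not overlap; blue points are the 4 controls, orange points the 4 mutants, and bars the group means. Dars lies higher in mutants with one mutant among the controls, and each mutant of the other 7 genes lies below each control.

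Ears2, for glutamate and singled out after its values were seen, missed separation by 1 pair of libraries, with mutants at 1263, 1338, 1247 and 1270 and controls at 1444, 1443, 1490 and 1336 (log2 -0.16, limma adjusted p = 0.122). The estimates of Cars2, Hars2, Mars2, Pars2, Sars2, Vars2, Wars2 and Yars2 lay between -0.18 and -0.02, and those of Fars2 and Nars2 were 0.11 and 0.04. Of these 10, Mars2, with the fewest reads, had the widest interval, from -0.45 to 0.09. Hars and Hars2 overlap each other at their starts on opposite strands.

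Summed over members, the cytosolic genes held 105802, 110934, 116658 and 113277 normalised reads in controls 1 to 4 and 110997, 112163, 104767 and 112115 in mutants 1 to 4, and these ranges overlapped. The 15 mitochondrial genes other than Lars2 held 19702, 20180, 20877 and 19549 in controls and 18609, 18891, 17863 and 18870 in mutants, and these did not. Lars2 was left out of this sum, and of the ratio that follows, after its values were seen. Per 100 cytosolic reads there were 18.6, 18.2, 17.9 and 17.3 mitochondrial reads in controls and 16.8, 16.8, 17.1 and 16.8 in mutants. With Lars2 included the sums overlapped, at 26137, 27959, 34609 and 25765 in controls and 44718, 36984, 24523 and 30728 in mutants. These sums describe the members and were not tested.

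The spread of the synthetase genes within a group is given without a value for all tested genes beside it. Without Lars2 the coefficient of variation among 4 libraries had a median of 5.92% in controls and 5.95% in mutants, and the highest was 14.7%, in Mars2 of mutants. The lowest library of a group was often the same one for many members: control 1 was lowest among controls for 15 of 20 cytosolic genes, and mutant 3 was lowest among mutants for 15 of 20. The median deviation of the cytosolic members from their group mean, in log2, was -0.109 in control 1 and -0.106 in mutant 3.

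Lars2, the mitochondrial leucine enzyme, varied far more, and it is described here after its values were seen. It lies on chromosome 9 from 123366927 to 123462666, with no overlapping gene. It stood at 6434, 7779, 13732 and 6216 normalised reads in controls and at 26110, 18093, 6660 and 11858 in mutants 1 to 4. The groups overlapped, since mutant 3 lay among the low controls and control 3 above mutants 3 and 4. The coefficient of variation was 41.3% in controls and 53.4% in mutants, and the log2 fold change of 0.78 had an SE of 0.46 (limma adjusted p = 0.366). It made up between 24.1% and 39.7% of mitochondrial synthetase reads in controls and between 27.2% and 58.4% in mutants. The cytosolic counterpart Lars stood between 4389 and 5087 in all 8 libraries.

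Across the libraries Lars2 was high where some non-coding RNA genes were high, which were set beside it after its values were seen. Mir6236, annotated as a microRNA gene, stood at 1484, 1862, 3803 and 1328 in controls and 7972, 4782, 1595 and 2923 in mutants, and put the 8 libraries in the same order as Lars2. Rpph1, the RNA of ribonuclease P, stood at 25.2, 46.2, 59.5 and 25 in controls and 192, 83.5, 15.1 and 35.5 in mutants. The ribosomal RNA gene Rn45s took 0.398%, 0.322%, 0.586% and 0.382% of the reads in controls and 0.755%, 0.555%, 0.341% and 0.34% in mutants, and its 3 highest libraries, mutant 1, control 3 and mutant 2, were also the 3 highest for Lars2. Of stretches of 25 bases, 0 of 99 from Mir6236 and 0 of 295 from Rpph1 occurred in annotated Lars2 transcripts on either strand. For the mitochondrial ribosomal RNAs it was 0 of 931 from mt-Rnr1 and 0 of 1558 from mt-Rnr2. For the genes Gm42418 and AY036118 it was 0 of 1807 and 0 of 899, while 28 of 816 from the non-coding gene Gm15564 did occur. The sequence of Rn45s was not searched, so stretches that it may share with Lars2 are not known. The part of these RNAs in the Lars2 values was not tested.

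**Figure D4:**
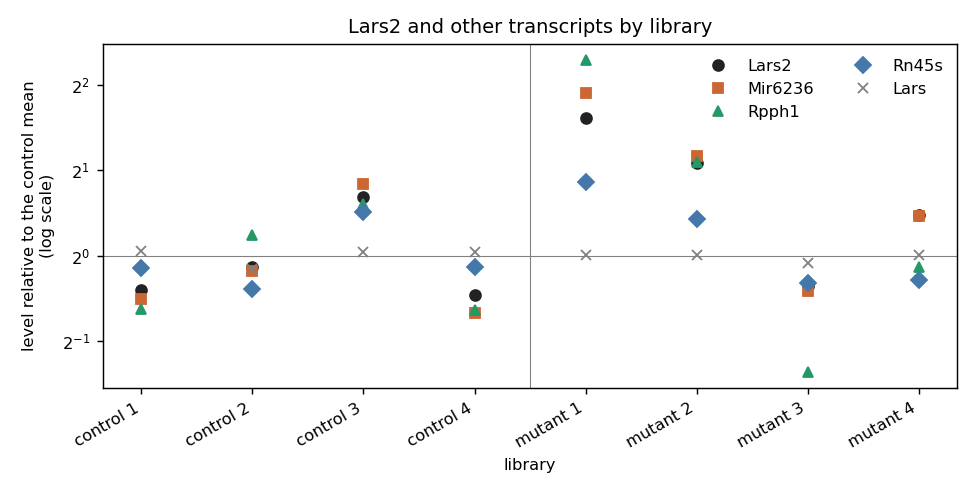
Level of Lars2, Mir6236, Rpph1, Rn45s and Lars in each library relative to the control mean of that gene, on a log axis in powers of 2, with controls left and mutants right of the vertical line. Lars2 and Mir6236 stand together in each library and are highest in mutant 1, while Lars stays near 1 throughout.

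Other genes of transfer RNA charging and use were also mostly not called, as holds for most genes: limma called 8.43% of all tested genes. Before adjustment, 12.0% of all tested genes lay higher with p under 0.05 and 11.2% lay lower. By the test of the authors 12.5% passed. With lists this short, few calls do not set these genes apart, and their counts were not tested against those shares. Of 9 genes of charging quality control and mitochondrial glutaminyl-tRNA formation 0 rose and 1 fell. This was Ptrh2, a mitochondrial peptidyl-tRNA hydrolase, which fell by 0.23 in log2 units (2131 ± 30.6 against 1824 ± 64.1, SD, n = 4 each, limma adjusted p = 0.0176). By limma 0 were called among 13 genes of transfer RNA processing and export (0 higher and 2 lower at an unadjusted p under 0.05, 1 in the authors' deposited table), 8 of cytosolic elongation and termination (0 and 1, and 1) and 9 mitochondrial translation factors (0 and 2, and 0). Their medians were -0.065, -0.100 and -0.086. The count was also 0 of 7 for eIF2 alpha, its 4 kinases and the regulators of Eif2ak4, Gcn1l1 and Impact (1 and 0, and 0), with a median of 0.045. Eif2ak4, the kinase that senses uncharged transfer RNA, stood at 2609 ± 177 in controls against 2688 ± 55.8 for mutants (SD, n = 4 per group, limma adjusted p = 0.701).

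Atf4 itself was at 8731, 13630, 9462 and 11801 normalised reads in controls and 10974, 9031, 9809 and 10489 in mutants, with overlapping groups (log2 -0.10, limma adjusted p = 0.729). ATF4 is regulated largely through translation, which these libraries do not measure. Of 30 other genes known to respond to ATF4, Atf4 included, 5 rose, 2 fell and 23 were not called, with a median of -0.099. That is 23.3% called, beside 8.43% of all tested genes (5.4% higher and 3.03% lower). The risen genes were Stc2 (21.6-fold), Vldlr (4.6-fold), Ddit4 (3.71-fold), Trib3 (3.28-fold) and Shmt2 (2.17-fold), each with a limma adjusted p of at most 0.00341. Trib3 rests on few normalised reads, at 9.7, 22.6, 13.6 and 16.3 in controls and 37.9, 50.1, 50.3 and 71.1 in mutants. Stc2, Vldlr and Ddit4 are also known HIF targets, and Shmt2 makes glycine in mitochondria. Shmt2 overlaps Ndufa4l2 on the other strand, so its value is uncertain. The fallen genes were Slc7a5, a transporter of large neutral amino acids, which fell by 0.44 (adjusted p = 0.00171), and Mthfd2, a mitochondrial folate enzyme named after its values were seen, which fell by 0.38 (adjusted p = 0.0169). Asns, the asparagine synthetase, stood at 671 ± 49.2 in controls against 592 ± 53.6 for mutants (SD, n = 4 per group, limma adjusted p = 0.24). Ddit3, which overlaps Mars on the other strand, had 444 ± 134 and 392 ± 54.3 (SD, n = 4 each; limma adjusted p = 0.745).

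**Figure D5:**
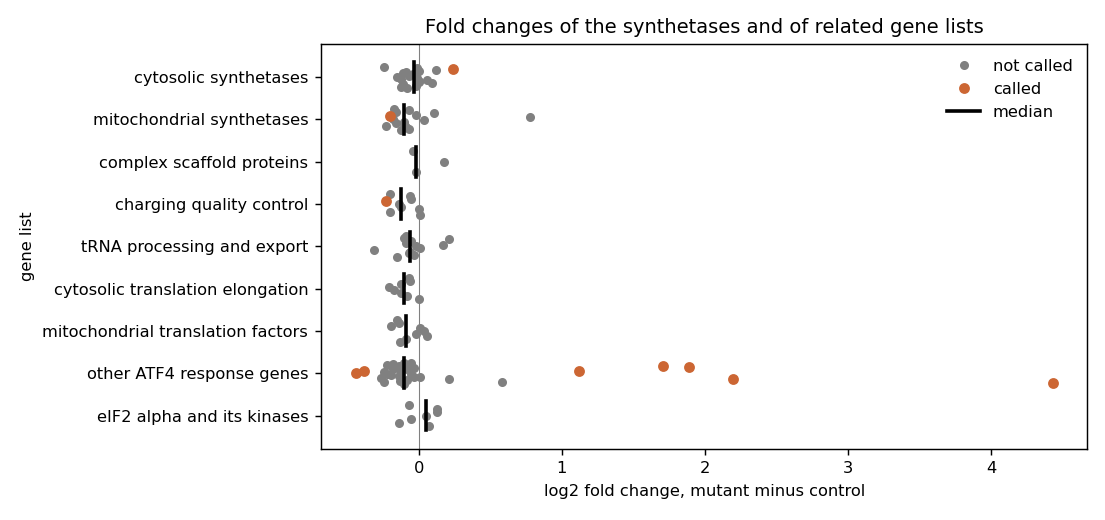
Log2 fold change (mutant minus control) of each gene of the synthetase sets and of 7 related lists; grey points were not called, orange points were called at an adjusted p under 0.05, and black bars are medians. Synthetases lie close to 0 apart from Lars2 at 0.78, while the other ATF4 response genes reach 4.43 with a median of -0.099.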

How the data were processed

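Polyadenylated RNA of 8 libraries was sequenced. Per the submitters' processing notes, STAR 2.5.3a, DESeq2 1.18.1 and mm10 were used by the authors. The read counter, annotation and strand setting: not given in the sources used here. As worked out from the values, the deposited signal per library is reads divided by size factors and then divided by them again, the second time with the factors recycled along the rows. Whole reads within a relative tolerance of 1e-09 of the deposited mean were rebuilt for 20254 of 20254 genes, and reads divided once were analysed. The authors' deposited log2 fold changes and p-values served as an alternative, and their deposited score was not used.

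The 15381 genes that reached 10 normalised reads in 4 or more libraries were compared as log2(value + 1) with limma 3.58.1 in R 4.3.3 (trended, robust, no covariate), two-sided, with Benjamini-Hochberg adjustment over all of them. The fit was tested on simulated data. Planned count models were not run: the deposited signal does not itself step in whole reads, and the rebuilt reads rest on the inferred second division. As an alternative, limma-voom on the rebuilt reads was added after seeing the data. Members and lists were chosen with earlier results of these data known. Values per library are given for members that were called or whose groups did not overlap, and, chosen after their values were seen, for Ears2 and Lars2. Exon lengths merge the coding transcripts of GENCODE M21 (GRCm38). Some items are not reported here. Depth was 37252683 to 46515762 reads per library.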

Additional observations from a re-analysis of the deposited data

Results flagged for a closer look

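In 72 groups of 4 libraries (36 genes in each of 2 genotypes), 10 had a library far from the others by Dixon's criterion at the 95% level, where chance alone marks about 1 in 20 groups. Mutant 3 was the low library in 6 of them: Aars at 4203 normalised reads (others 4866 to 4936), Kars at 7660 (8381 to 8508), Lars at 4617 (4896 to 4919), Aars2 at 1134 (1240 to 1260), Fars2 at 963 (1099 to 1118) and Tars2 at 1475 (1710 to 1751). Control 2 was low for Lars at 4389 (others 5037 to 5087) and high for Iars2 at 3577 (3358 to 3377). Control 4 was high for Nars at 6289 (5972 to 5990) and mutant 1 for Tars at 3713 (3401 to 3423).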

How the results depend on the processing

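The call of Dars was absent (0 cytosolic genes higher) with TMM scaling, the deposited values as they stand, no filter on low values, the replicate block, limma-voom (chosen after seeing the data) and without control 3 and mutant 2. That of Iars2 was absent (0 mitochondrial genes lower) with the deposited values, no filter, the replicate block and without control 3 and mutant 2. Lower cytosolic genes numbered 2 with library quality weights and 1 in the authors' deposited table, where lower mitochondrial genes numbered 2. With 1 library left out, cytosolic genes numbered 0 to 1 in each direction and lower mitochondrial genes 0 to 1, and all called genes numbered 749 (without mutant 4) to 1572, with 817 without control 4. All called genes numbered 697 with the deposited values, 766 with the replicate block, 2996 with library quality weights and 743 without control 3 and mutant 2. Deviations from the group means of same-numbered libraries correlated at 0.213, -0.143, -0.144 and 0.063. Over all pairs of a control and a mutant, control 3 with mutant 2 was highest at 0.57 and control 3 with mutant 1 lowest at -0.468. Deviations were centred within each group of 4, so these values cannot decide whether the replicate numbers pair the libraries. The 8 genes that were called or whose groups did not overlap kept their direction in all 17 alternatives, as did Vhl its call, and of the 28 other members, Ears2 and Lars2 among them, 8 changed sign in at least 1 and 0 were called in any. The cause of these changes was not tested. Planned edgeR and DESeq2 tests on rebuilt reads were not run.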
